A study of Homo sapiens with 6 samples.

Results

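Autophagy carries parts of the cytoplasm to the lysosome inside a membrane vesicle, the autophagosome. The ULK kinase complex starts it, and a lipid kinase complex built on PIK3C3 and BECN1 marks the site with the lipid PI3P. A ubiquitin-like conjugation system then attaches ATG8 proteins (the LC3 and GABARAP families) to the growing membrane, where cargo receptors such as SQSTM1 and NBR1 bind them. The transcription factor p53 is known to act on this pathway through target genes, of which DRAM1, a lysosomal membrane protein, was one of the first described in human cells. The 40 genes described here are the machinery and receptors of this pathway, taken by symbol from a table of 57773 Ensembl gene IDs, and all 40 matched an ID. They were chosen by their known roles, by someone who had seen earlier results of these data.

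RPE1, an immortalised human retinal pigment epithelial line, received 2.5 µM Nutlin-3 or its solvent DMSO for 24 h, with 3 libraries per group. Nutlin-3 blocks the contact between p53 and MDM2, a ubiquitin ligase that marks p53 for degradation. Poly(A) RNA was sequenced from stranded libraries, and the deposited values are RPKM, reads per kb of gene and per M reads in the library. Nothing in the labels tells separate cultures from repeat preparations, so the p-values rest on a spread among libraries that may be technical only. In bulk RNA, fewer cells of a type and less RNA per cell cannot be told apart. Of the marker genes of retinal pigment epithelium, RPE65 had 0 to 2 reads per library, TYR 0 to 1, TYRP1 had 0 to 4, RLBP1 3 to 13, PMEL 12 to 21 and BEST1 35 to 44. The transcription factors MITF (1383 to 1905 reads) and OTX2 (741 to 1359 reads) and the epithelial keratins KRT8 and KRT18 were present, OTX2 lower and both keratins higher in Nutlin-3 as limma calls. KRT8 averaged 7.08 ± 0.132 RPKM in Nutlin-3 and 4.22 ± 0.0969 RPKM in DMSO libraries. Of genes of other cell types, CDH5 had 0 reads and PTPRC 1 to 6, and CD68, a lysosomal protein of macrophages that other cells also make, had 1648 to 2408 reads and was higher in Nutlin-3. The part of these markers in the results was not tested. CDKN1A, which encodes p21, averaged 60.5 ± 2.34 RPKM in Nutlin-3 and 8.36 ± 0.463 RPKM in DMSO libraries (SD, n = 3 each), which checks the treatment.

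Libraries held between 29.6 and 42.7 M recovered reads, and every one of the 40 genes had at least 309 reads in each library. The deposited RPKM divide by the whole gene span, introns included, so a long gene has a low RPKM and RPKM of different genes cannot be compared. All genes averaging 0.05 RPKM or more were tested with limma on log2(RPKM + 0.05), which understates the change of genes with low RPKM. ATG10, spread over a very long gene, stood below that filter, and the other 39 were tested.

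With Nutlin-3, 19 of the 39 tested autophagy genes rose, 4 fell and 16 did not pass the threshold of an adjusted p under 0.05. Of all 22859 genes tested, 34.9% passed in either direction, and 50.1% of the protein-coding ones. The rises are 48.7% of the autophagy genes tested, against a background of 18.3% of all 22859 genes tested, and against 26.6% of the 12306 protein-coding genes among them. The falls are 10.3%, against 16.6% of all genes tested and 23.5% of the protein-coding ones. The median log2 fold change was 0.14 over the 39 genes and 0.00104 over all genes tested. On the recovered reads with limma voom, 21 of 40 rose and 9 fell, beside 49.4% of 20882 genes called, 25.6% higher and 23.9% lower. With a filter of 10 reads on the RPKM values, 19 of 40 rose and 6 fell, beside 44.6% of 20882 genes called, 23.1% higher and 21.5% lower. A log2 fold change of at least 0.3 was reached by 13 of the rises and at most -0.3 by 1 of the falls, beside 10.6% and 10.8% of all genes tested. Without DMSO replicate 3, 2 falls were called in place of 4. In 30 of the 40 genes the groups did not overlap, 21 with Nutlin-3 higher and 9 with Nutlin-3 lower. Non-overlap was seen in 49.7% of all genes tested, with Nutlin-3 higher in 25.4% and lower in 24.3%.

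Of the 13 ATG8 proteins, receptors and lysosome-linked genes, 11 rose and none fell, and the median log2 fold change was 0.39. Of the 26 tested genes of the upstream machinery, from the ULK complex to conjugation, 8 rose and 4 fell, and the median was 0.03. Beside these counts, 26.6% of the protein-coding genes tested rose and 23.5% fell, and 18.3% and 16.6% of all genes tested. The same shares stand beside the limma counts of each group and list below. The split into these 2 sets was drawn after the values were seen, and the difference between its sides was not tested.

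**Figure D1:**
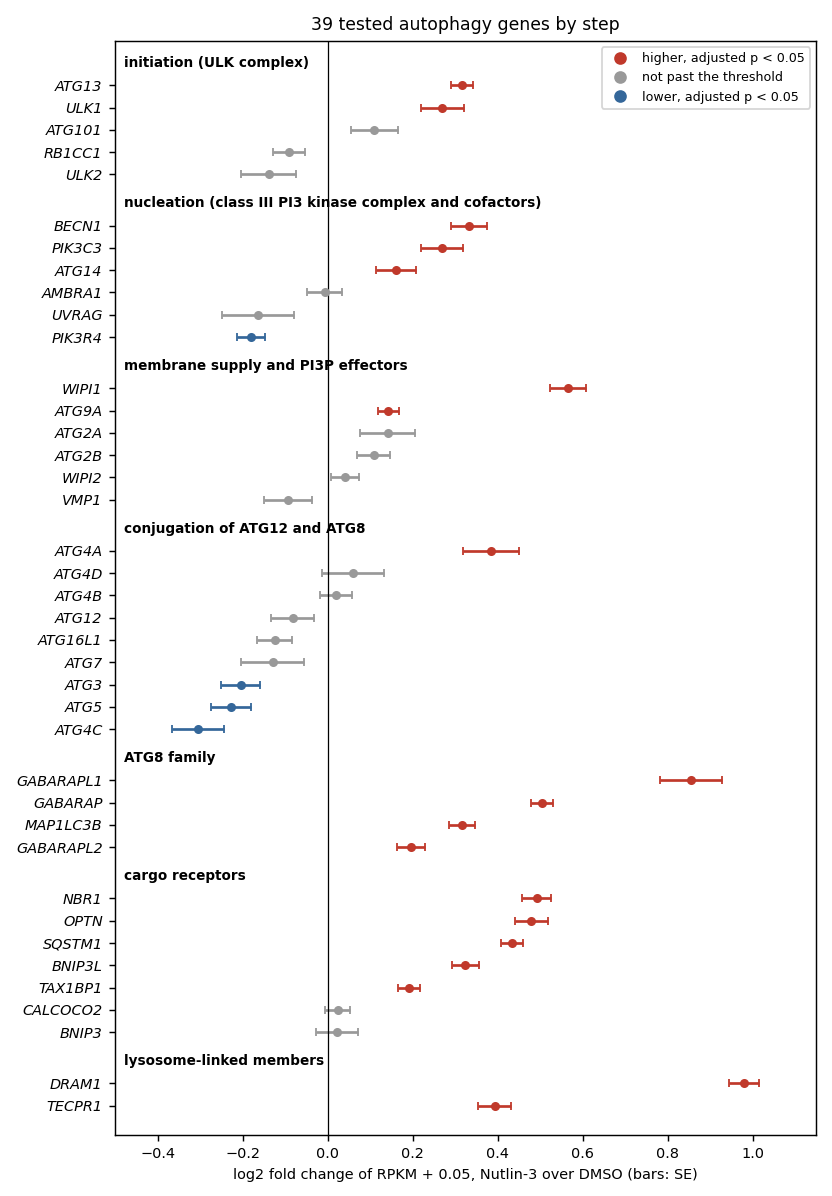
Log2 fold change of RPKM + 0.05 (x axis, Nutlin-3 over DMSO, bars are SE of the limma fit) for the 39 tested genes, grouped by step of the pathway, with colour for the direction of genes past an adjusted p of 0.05. All 4 ATG8 genes shown and 5 of 7 cargo receptors lie to the right of 0 as calls, while 3 of 9 conjugation genes lie to the left as calls. ATG7, ATG12 and ATG16L1 also lie to the left but did not pass.

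The largest rises were those of DRAM1 and GABARAPL1, and 2 other members, ATG14 and ATG3, held the E-box TCACGTG, the core of the element bound by TFEB and TFE3, which drive lysosomal and autophagy genes. The 100 bases before the RefSeq start of each (GRCh38.p14) are shown 5′ to 3′ on the gene's strand, with an E-box in capitals. DRAM1 is at chr12:101877480-101877579 on the plus strand, GABARAPL1 at chr12:10212777-10212876 on the plus strand, ATG14 at chr14:55411831-55411930 on the minus strand and ATG3 at chr3:112561963-112562062 on the minus strand.
DRAM1: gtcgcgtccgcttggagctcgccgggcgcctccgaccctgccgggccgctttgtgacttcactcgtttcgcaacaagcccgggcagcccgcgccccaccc
GABARAPL1: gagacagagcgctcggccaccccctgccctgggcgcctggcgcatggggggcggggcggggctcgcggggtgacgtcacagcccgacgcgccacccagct
ATG14: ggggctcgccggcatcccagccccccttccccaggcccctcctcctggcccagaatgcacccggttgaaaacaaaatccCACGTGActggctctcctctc
ATG3: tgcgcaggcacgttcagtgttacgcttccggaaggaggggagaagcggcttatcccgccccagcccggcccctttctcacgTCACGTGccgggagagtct
The E-box began 21 bases before the start of ATG14, where TCACGTG lies on the opposite strand and the gene's strand shown reads CACGTGA. It began 19 bases before the start of ATG3. The ATG3 window held it again 4 and 5 bases after the start, as overlapping matches on opposite strands. In RefSeq windows of 300 bases, 250 before and 50 after a start, searched on both strands, 2 of the 36 autophagy genes with a window (5.56%) held this E-box, against 1226 of all 27305 genes (4.49%). The p53 response element was searched as 2 half-sites of 10 bases up to 13 bases apart with at most 2 mismatches. No mismatch was allowed at the fixed C or G of a half-site. The element was in 0 of the 36 and in 989 of the 27305 (3.62%). UVRAG, ATG4D, BNIP3L and RB1CC1 had no window. The E-box thus stood in one gene that rose and one that fell, and DRAM1 and GABARAPL1 had neither motif in this window.

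In the initiation complex, 2 of 5 genes rose, the kinase ULK1 and its regulatory subunit ATG13. ULK1 (ENSG00000177169) had 2.38, 2.42 and 2.34 RPKM in Nutlin-3 replicates 1 to 3, against 1.90, 1.89 and 2.11 RPKM in DMSO replicates 1 to 3. Its log2 fold change was 0.27 (SE 0.0504, limma adjusted p = 0.0120), a ratio of mean RPKM of 1.21. The ULK1 adjusted p lay between 5.86e-05 and 0.0562 over 16 alternatives. ATG13 had 1.57, 1.59 and 1.62 RPKM in Nutlin-3, against 1.25, 1.29 and 1.27 RPKM in DMSO libraries. The groups did not overlap for either gene, and the ATG13 rise was 0.32 (SE 0.0263, limma adjusted p = 0.000849).

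The other kinase of this complex, ULK2, a close relative of ULK1, had 0.157, 0.158 and 0.173 RPKM in Nutlin-3, against 0.175, 0.194 and 0.183 RPKM in DMSO libraries. All 3 Nutlin-3 values were below the DMSO values, but the difference did not pass (log2 fold change -0.14, limma adjusted p = 0.166). It passed on the recovered reads by limma voom, and its adjusted p lay between 0.0301 and 0.562 over 14 alternatives. The ULK1 and ULK2 estimates thus have opposite signs, a difference between genes that was not tested. The scaffold RB1CC1, also known as FIP200, averaged 0.664 ± 0.0201 RPKM in Nutlin-3 and 0.711 ± 0.0208 RPKM in DMSO libraries (limma adjusted p = 0.131). ATG101, which stabilises ATG13, averaged 2.94 ± 0.120 and 2.73 ± 0.161 RPKM in Nutlin-3 and DMSO libraries, with overlapping groups (limma adjusted p = 0.195).

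Among the 6 genes of the lipid kinase complex and its cofactors, BECN1, PIK3C3 and ATG14 rose and PIK3R4 fell. BECN1, the Beclin scaffold, had 3.35, 3.57 and 3.45 RPKM in Nutlin-3, against 2.83, 2.61 and 2.77 RPKM in DMSO libraries. The groups did not overlap, and the rise was 0.33 (SE 0.0420, limma adjusted p = 0.00320). CNTD1 and PSME3, on the opposite strand, cover 17.1% of the BECN1 exon length. PIK3C3, the catalytic subunit also known as VPS34, had 0.498, 0.530 and 0.492 RPKM in Nutlin-3, against 0.399, 0.404 and 0.434 RPKM in DMSO libraries. Its rise was 0.27 (SE 0.0488, limma adjusted p = 0.0110), and the adjusted p lay between 2.19e-05 and 0.0593 over 14 alternatives.

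PIK3R4, the regulatory subunit VPS15 of the same complex, moved the other way. It had 0.467, 0.482 and 0.488 RPKM in Nutlin-3, against 0.544, 0.561 and 0.543 RPKM in DMSO libraries, and fell by 0.18 on the log2 scale (SE 0.0333, limma adjusted p = 0.0116). Each Nutlin-3 library stood below each DMSO library. ATG14, which directs the complex to autophagosome formation, averaged 0.700 ± 0.0392 RPKM in Nutlin-3 and 0.620 ± 0.00858 RPKM in DMSO libraries. Its call (0.16, limma adjusted p = 0.0481) was close to the threshold and was lost without any 1 of 5 libraries, all but Nutlin-3 replicate 2, and its adjusted p lay between 0.00967 and 0.126 over 16 alternatives. UVRAG, which directs the complex to endosomes, had 0.102, 0.0915 and 0.0923 RPKM in Nutlin-3, against 0.107, 0.120 and 0.111 RPKM in DMSO libraries. That difference did not pass on RPKM (-0.16, limma adjusted p = 0.201) and passed with a filter of 10 reads (limma adjusted p = 0.0412) and on recovered reads (-0.24, by limma voom adjusted p = 0.00179), with a range over 14 alternatives of 0.00179 to 0.494. AMBRA1, a Beclin cofactor, averaged 0.371 ± 0.00473 RPKM in Nutlin-3 and 0.373 ± 0.0158 RPKM in DMSO libraries (limma adjusted p = 0.918).

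Of the 6 genes that supply membrane or read PI3P, WIPI1 and ATG9A rose. WIPI1, a PI3P-binding propeller protein, had 1.41, 1.40 and 1.38 RPKM in Nutlin-3, against 0.901, 0.907 and 0.985 RPKM in DMSO libraries. Its rise of 0.57 (SE 0.0418, limma adjusted p = 0.000598), a ratio of 1.5, was the largest in the upstream machinery. ARSG and AC007780.1, on the opposite strand, cover 28.1% of its exon length, and whether the counting used strand is not given in the sources used here. Its relative WIPI2, which recruits ATG16L1, averaged 1.48 ± 0.0263 RPKM in Nutlin-3 and 1.44 ± 0.0443 RPKM in DMSO libraries, with overlapping groups (0.040, limma adjusted p = 0.424).

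ATG9A, the transmembrane scramblase of autophagosome precursors, rose by a small amount (0.14, SE 0.0257, limma adjusted p = 0.0106). It had 5.05, 5.24 and 5.23 RPKM in Nutlin-3, against 4.63, 4.66 and 4.75 RPKM in DMSO libraries. Its adjusted p lay between 0.00241 and 0.0515 over 16 alternatives. AC068946.2 covers 38.8% of its exon length in the same orientation, so reads may be split between them. The lipid transfer proteins ATG2A and ATG2B had higher means in Nutlin-3 libraries without passing on RPKM, with log2 fold changes of 0.14 and 0.11. ATG2A averaged 1.95 ± 0.163 RPKM in Nutlin-3 and 1.76 ± 0.0425 RPKM in DMSO libraries, and its adjusted p lay between 0.0329 and 0.315 over 16 alternatives. ATG2B averaged 0.838 ± 0.0299 RPKM in Nutlin-3 and 0.774 ± 0.0210 RPKM in DMSO libraries, with a range of 0.0248 to 0.224. Both passed by limma voom, and ATG2B also after quantile normalization. VMP1, a scramblase of the endoplasmic reticulum, averaged 2.09 ± 0.154 RPKM in Nutlin-3 and 2.23 ± 0.0360 RPKM in DMSO libraries (-0.094, limma adjusted p = 0.268). Nutlin-3 replicate 1, at 2.27 RPKM, lay apart from Nutlin-3 replicates 2 and 3, at 2.03 and 1.98 RPKM. Without that library VMP1 was lower in Nutlin-3 (-0.15, limma adjusted p = 0.0263), and the range over 16 alternatives was 0.0263 to 0.528.

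In the conjugation system 3 of 9 tested genes fell, 1 rose and 5 did not pass, and the median log2 fold change was -0.13. Falls made up 16.6% of all genes tested and 23.5% of the protein-coding ones, and without DMSO replicate 3 the conjugation genes had 1 fall. ATG5, which is joined to ATG12 to form the ligase for ATG8 lipidation, had 0.265, 0.274 and 0.249 RPKM in Nutlin-3, against 0.317, 0.313 and 0.317 RPKM in DMSO libraries. It fell by 0.23 on the log2 scale (SE 0.0466, limma adjusted p = 0.0164). ATG3, the E2-like enzyme that carries ATG8 to the lipid, had 1.56, 1.61 and 1.51 RPKM in Nutlin-3, against 1.90, 1.73 and 1.79 RPKM in DMSO libraries, and fell by 0.20 (SE 0.0454, limma adjusted p = 0.0212). Neither gene's groups overlapped. The ATG5 call was lost without DMSO replicate 2 (limma adjusted p = 0.0515) or 3 (0.0539) and under quantile normalization (0.0582), within a range over 14 alternatives of 2.76e-05 to 0.0751. The ATG3 call was lost without DMSO replicate 3 (limma adjusted p = 0.0582), Nutlin-3 replicate 1 (0.0651) or Nutlin-3 replicate 3 (0.0686), within a range over 16 alternatives of 0.000824 to 0.0778.

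The ATG4 proteases, which trim ATG8 proteins and release them from lipid, divided. ATG4A had 0.260, 0.275 and 0.238 RPKM in Nutlin-3, against 0.187, 0.192 and 0.177 RPKM in DMSO libraries, a rise of 0.38 (SE 0.0661, limma adjusted p = 0.00921). ATG4C had 0.150, 0.138 and 0.135 RPKM in Nutlin-3, against 0.191, 0.181 and 0.187 RPKM in DMSO libraries, a fall of 0.31 (SE 0.0611, limma adjusted p = 0.015). For both proteases the groups were fully apart, in opposite directions, with ratios of mean RPKM of 1.39 for ATG4A and 0.758 for ATG4C. The ATG4C call was lost without Nutlin-3 replicate 2 (limma adjusted p = 0.0512), within a range over 14 alternatives of 5.86e-05 to 0.0694. ATG4B, the protease with the broadest activity on ATG8 proteins, averaged 1.54 ± 0.0506 RPKM in Nutlin-3 and 1.51 ± 0.0404 RPKM in DMSO libraries (limma adjusted p = 0.738). ATG4D averaged 1.34 ± 0.107 RPKM in Nutlin-3 and 1.28 ± 0.0755 RPKM in DMSO libraries (limma adjusted p = 0.588).

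The remaining 4 conjugation genes had lower means in Nutlin-3 libraries, and 3 of them, ATG7, ATG16L1 and ATG12, were tested and did not pass. ATG7, the E1-like enzyme, averaged 0.171 ± 0.00668 RPKM in Nutlin-3 and 0.192 ± 0.0173 RPKM in DMSO libraries, and its adjusted p lay between 0.0277 and 0.649 over 14 alternatives. ATG16L1, which anchors the ligase to the membrane, averaged 0.371 ± 0.0134 RPKM in Nutlin-3 and 0.410 ± 0.00925 RPKM in DMSO libraries, with a range of 0.0176 to 0.187. Both passed on the recovered reads, the setting at the low end of each range. ATG12, the ubiquitin-like partner of ATG5, averaged 3.30 ± 0.0823 RPKM in Nutlin-3 and 3.51 ± 0.210 RPKM in DMSO libraries, with overlapping groups (limma adjusted p = 0.269). ATG10, the E2-like enzyme that joins ATG12 to ATG5, was under the filter and had 0.0326, 0.0334 and 0.0334 RPKM in Nutlin-3, against 0.0382, 0.0447 and 0.0418 RPKM in DMSO libraries. These values rest on 309 to 492 reads per library. ATG10 was lower in Nutlin-3 on recovered reads (-0.31, by limma voom adjusted p = 0.00198), and with a filter of 10 reads in place of the RPKM filter it passed too (-0.14, limma adjusted p = 0.0193). Counted on reads, 6 of 10 conjugation genes were lower and 1 was higher in Nutlin-3, against a background by limma voom of 23.9% lower and 25.6% higher among 20882 genes.

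All 4 ATG8 family genes in the chosen set rose, and no library of one group overlapped the other for any of them. MAP1LC3A and MAP1LC3C, LC3 genes of a further list, had higher means in Nutlin-3 but did not pass on RPKM. MAP1LC3A (log2 fold change 0.46, limma adjusted p = 0.101) had 18 to 50 reads per library. It passed with a filter of 10 reads and by limma voom (adjusted p = 0.00815). MAP1LC3C (0.40, limma adjusted p = 0.199) had 6 to 17 reads per library and overlapping groups. GABARAPL1 had 2.20, 2.37 and 2.33 RPKM in Nutlin-3, against 1.12, 1.31 and 1.32 RPKM in DMSO libraries. Its rise of 0.85 (SE 0.0736, limma adjusted p = 0.000938), a ratio of 1.84, was the second largest of the 39 genes. GABARAP had 56.8, 59.2 and 58.9 RPKM in Nutlin-3, against 40.7, 40.6 and 41.8 RPKM in DMSO libraries, a rise of 0.50 (SE 0.0262, limma adjusted p = 0.000234). These proteins act late in autophagosome maturation, and GABARAP and GABARAPL1 are close paralogs between which reads can be split. AC120057.2 covers 30.5% of the GABARAP exon length in the same orientation and AC120057.3 covers 25.2% in the opposite one, so that value is uncertain.

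MAP1LC3B, the LC3 protein most used to follow autophagosomes, had 4.85, 5.04 and 5.07 RPKM in Nutlin-3, against 4.05, 3.89 and 4.05 RPKM in DMSO libraries, a rise of 0.32 (SE 0.0307, limma adjusted p = 0.00136). GABARAPL2, also known as GATE-16, rose least, with 3.41, 3.63 and 3.54 RPKM in Nutlin-3 against 3.01, 3.07 and 3.14 RPKM in DMSO libraries (0.20, SE 0.0335, limma adjusted p = 0.00908). To compare the ATG8 family genes of the chosen set with each other, recovered reads were divided by the merged exon length of GENCODE 29. On this exon scale the 4 genes together reached 109.8 ± 2.72 reads per kb per M in Nutlin-3 and 80.5 ± 1.36 in DMSO libraries. GABARAP made up 64.6% ± 0.118 of that sum in Nutlin-3 and 62.0% ± 0.0816 in DMSO libraries. GABARAPL1 made up 5.47% ± 0.0811 in Nutlin-3 and 4.06% ± 0.337 in DMSO libraries. The shares of both thus had higher means with Nutlin-3, while those of MAP1LC3B and GABARAPL2 had lower ones. MAP1LC3B held 17.8% ± 0.109 in Nutlin-3 and 19.4% ± 0.399 in DMSO libraries, and GABARAPL2 held 12.2% ± 0.119 in Nutlin-3 and 14.5% ± 0.136 in DMSO libraries (SD, n = 3 each). The shares were not tested, and the GABARAP overlaps given above leave its level, and with it the sum and all shares, uncertain.

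**Figure D2:**
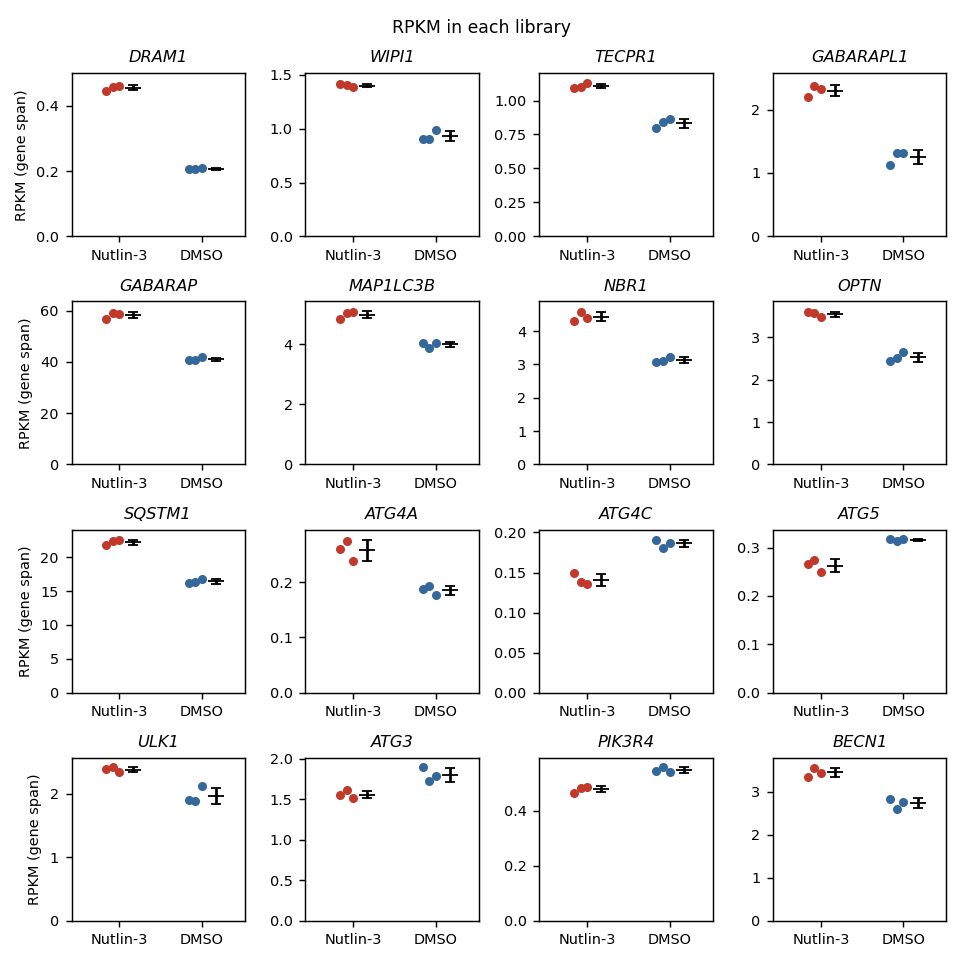
RPKM over the gene span (y axis, each from 0) in the 3 Nutlin-3 libraries (red) and the 3 DMSO libraries (blue) for 16 of the 40 genes, with the mean and SD in black. The 16 were picked from genes past the threshold with groups apart, so separation in every panel follows from the choice. Groups were apart in 30 of the 40 genes and in 49.7% of all genes tested. ATG4C, ATG5, ATG3 and PIK3R4 are the panels in which Nutlin-3 is lower.

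Of the 7 cargo receptors, 5 rose and none fell. SQSTM1, the ubiquitin-binding receptor p62, had 21.8, 22.4 and 22.5 RPKM in Nutlin-3, against 16.1, 16.4 and 16.8 RPKM in DMSO libraries. The rise was 0.43 (SE 0.0263, limma adjusted p = 0.000337), on 15456 to 25419 reads per library. NBR1, a receptor with the same domain layout that acts with SQSTM1 in aggregates, had 4.31, 4.58 and 4.40 RPKM in Nutlin-3, against 3.07, 3.11 and 3.23 RPKM in DMSO libraries, a rise of 0.49 (SE 0.0346, limma adjusted p = 0.000526). OPTN, a receptor for damaged mitochondria and bacteria, had 3.58, 3.57 and 3.47 RPKM in Nutlin-3, against 2.43, 2.51 and 2.64 RPKM in DMSO libraries, a rise of 0.48 (SE 0.0381, limma adjusted p = 0.000727). The ratios of mean RPKM were 1.35 for SQSTM1, 1.41 for NBR1 and 1.40 for OPTN, and 1.149 and 1.016 for TAX1BP1 and CALCOCO2, which also bind ubiquitin. SQSTM1 shares 22.04% of its exon length with genes on the opposite strand.

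BNIP3L, the mitophagy receptor NIX, which is anchored in the outer mitochondrial membrane, had 1.28, 1.26 and 1.31 RPKM in Nutlin-3, against 1.01, 0.991 and 1.05 RPKM in DMSO libraries. It rose by 0.32 (SE 0.0325, limma adjusted p = 0.00151). Its relative BNIP3, a hypoxia-induced receptor of the same type, had 2.81, 2.88 and 2.75 RPKM in Nutlin-3, against 2.96, 2.68 and 2.66 RPKM in DMSO libraries. Here the groups overlapped, and the difference of 0.022 did not pass (limma adjusted p = 0.777). TAX1BP1 rose by 0.19 (SE 0.0263, limma adjusted p = 0.00425), with 1.04 ± 0.0105 RPKM in Nutlin-3 and 0.902 ± 0.0127 RPKM in DMSO libraries. CALCOCO2, its relative also known as NDP52, did not pass, with 1.46 ± 0.00816 RPKM in Nutlin-3 and 1.43 ± 0.0374 RPKM in DMSO libraries (0.023, limma adjusted p = 0.589). Whether these pairs of relatives differ in their response was not tested.

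At the lysosomal end, both genes rose. DRAM1 (ENSG00000136048) had 0.447, 0.459 and 0.462 RPKM in Nutlin-3, against 0.205, 0.205 and 0.209 RPKM in DMSO libraries. Its Nutlin-3 level was 2.21 times its DMSO level, the largest ratio of the 40 genes. The log2 fold change was 0.98 (SE 0.0363, limma adjusted p = 0.000137), and 1.14 by limma voom on the recovered reads. TECPR1, a tether between autophagosomes and lysosomes, had 1.10, 1.10 and 1.13 RPKM in Nutlin-3, against 0.794, 0.838 and 0.864 RPKM in DMSO libraries, a rise of 0.39 (SE 0.0388, limma adjusted p = 0.00144).

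On the exon scale, which allows levels of different genes to be set side by side, the 40 genes spanned a wide range. SQSTM1 was highest, with 92.0 ± 1.68 reads per kb per M in Nutlin-3 and 68.0 ± 1.41 in DMSO libraries, followed by GABARAP with 70.9 ± 1.63 in Nutlin-3 and 49.95 ± 0.798 in DMSO libraries. VMP1 was next, with 40.9 ± 3.00 in Nutlin-3 and 43.6 ± 0.704 in DMSO libraries, and BNIP3L followed with 36.6 ± 0.744 in Nutlin-3 and 28.98 ± 0.768 in DMSO libraries. ULK2 and ATG10 were lowest, ULK2 with 1.61 ± 0.0861 in Nutlin-3 and 1.82 ± 0.0946 in DMSO libraries. ULK1 stood several times higher than ULK2, at 8.93 ± 0.133 in Nutlin-3 and 7.38 ± 0.473 in DMSO libraries. DRAM1, at 14.7 ± 0.254 in Nutlin-3 and 6.66 ± 0.0652 in DMSO libraries, and GABARAPL1, at 6.00 ± 0.235 in Nutlin-3 and 3.27 ± 0.294 in DMSO libraries, had low or middling DMSO levels. The largest ratios were thus not those of the most abundant genes. Merged exons count every annotated isoform, so this scale is approximate for genes with long rarely used exons.

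**Figure D3:**
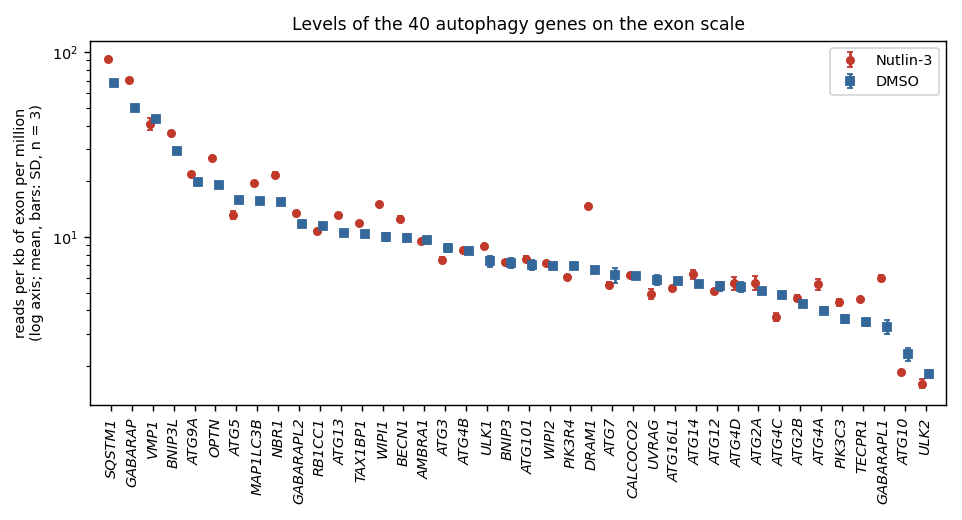
Reads per kb of merged exon per M reads (y axis, log) for the 40 autophagy genes, ordered by their DMSO level, as mean with SD over 3 libraries (red circles Nutlin-3, blue squares DMSO). SQSTM1 and GABARAP stand at the top in both groups, and DRAM1 and GABARAPL1 show the widest gaps, 14.7 against 6.66 and 6.00 against 3.27.

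The median gene span was 37.6 kb for the 19 autophagy genes that rose, 74.6 kb for the 4 that fell and 64.2 kb for the 16 that did not pass. The ranges overlapped, with 2.76 to 134.8 kb for those that rose and 29.5 to 280.4 kb for those that fell. Among protein-coding genes tested, the median span was 26.3 kb for the 3276 that rose, 34.99 kb for the 2893 that fell and 30.6 kb for the others. Median exon lengths were 5.14 kb for the autophagy genes that rose and 5.52 kb for those that fell. The difference in span was not tested, nor was the part of gene length in these calls.

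Beyond these 40 genes, 6 lists of 86 genes around the pathway were examined, of which 77 were tested, 37 rose and 4 fell. Their median log2 fold change was 0.14. The rises are 48.1% of those tested, beside 18.3% of all genes tested and 26.6% of the protein-coding ones. The falls are 5.19%, beside 16.6% and 23.5%. Of 13 tested genes for the fusion of autophagosomes with lysosomes, 8 rose and none fell. VPS39 and VPS41, subunits of the HOPS tethering complex, rose by 0.37 and 0.38. VPS39 averaged 2.12 ± 0.0208 RPKM in Nutlin-3 and 1.63 ± 0.0174 RPKM in DMSO libraries (limma adjusted p = 0.000388). PLEKHM1, an adaptor between HOPS, RAB7 and ATG8 proteins, rose by 0.39 (limma adjusted p = 0.00304). Of 14 tested other core genes 5 rose (35.7%) and none fell, among them ZFYVE1, which marks omegasomes, by 0.39, the PI3P effector WDR45 by 0.36 and EI24 by 0.35. That count was 3 without DMSO replicate 1, Nutlin-3 replicate 1 or Nutlin-3 replicate 2. WDR45 shares 13.9% of its exon length with PRAF2 on the same strand. MAP1LC3B2, ATG9B and RUBCNL were not tested, with at most 5 reads in any library.

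Among 12 tested further receptors and mitophagy genes, 6 rose and 1 fell. FKBP8, a mitochondrial ATG8-binding protein, averaged 13.2 ± 0.711 RPKM in Nutlin-3 and 9.17 ± 0.262 RPKM in DMSO libraries (0.52, limma adjusted p = 0.00113). The endoplasmic reticulum receptor CCPG1 rose by 0.44 and PINK1, the kinase that marks damaged mitochondria, by 0.42, although CCPG1 shares 38.9% of its exon length with other genes on the same strand and PINK1 39.4% with an antisense RNA. PHB2, an inner membrane receptor, fell by 0.14 (limma adjusted p = 0.0274). Without DMSO replicate 2 the list had 2 falls. The PHB2 call was lost without any 1 of DMSO replicate 3 and the 3 Nutlin-3 replicates, with adjusted p from 0.0629 to 0.0809 by limma, within a range over 16 alternatives of 0.00169 to 0.100.

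Of the regulators, 4 of 9 tested genes of the TFEB family and related factors rose (44.4%, beside 26.6% of protein-coding genes) and FNIP1 fell. The count of rises was 2 without DMSO replicate 2 or Nutlin-3 replicate 2, and 1 without any 1 of the other 4 libraries. TFE3, which drives lysosomal and autophagy genes when mTORC1 is low, averaged 7.15 ± 0.229 RPKM in Nutlin-3 and 5.85 ± 0.0969 RPKM in DMSO libraries (0.29, limma adjusted p = 0.00211). It was the only TFEB family gene to pass. TFEB (0.28, limma adjusted p = 0.0829) and MITF (-0.026, limma adjusted p = 0.769) did not, and TFEC was under the filter. By limma voom TFEB was higher (adjusted p = 0.00297) and TFEC lower (adjusted p = 0.0113) in Nutlin-3. FNIP1, a partner of FLCN in the control of TFE3, averaged 0.395 ± 0.0134 RPKM in Nutlin-3 and 0.493 ± 0.0196 RPKM in DMSO libraries (-0.29, limma adjusted p = 0.00678). FOXO4 (0.32, limma adjusted p = 0.0352) and FLCN (0.17, limma adjusted p = 0.0306) also rose, and FNIP2 by 0.11, close to the threshold (limma adjusted p = 0.0499). The FOXO4 call was lost without any 1 of 5 libraries, all but DMSO replicate 2, and the FLCN call without any 1 of 5, all but Nutlin-3 replicate 2, with ranges over 16 alternatives of 0.00811 to 0.109 and 0.00317 to 0.101.

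Of 19 tested genes of mTORC1 and AMPK signalling, which set the activity of ULK1, 7 rose (36.8%, beside 26.6% of protein-coding genes) and 1 fell. Without Nutlin-3 replicate 2, 4 rose. The sestrins SESN1 and SESN2, inhibitors of mTORC1, rose 2.84-fold and 2.45-fold in mean RPKM, and DDIT4, another inhibitor, 2.01-fold. RHEB, the GTPase that activates mTORC1, averaged 1.84 ± 0.0220 RPKM in Nutlin-3 and 2.35 ± 0.103 RPKM in DMSO libraries (-0.35, limma adjusted p = 0.00208). DDIT4 shares 41.2% of its exon length with an antisense RNA. Of 10 further p53-linked genes, 7 rose (70%) and 1 fell, and 2 fell without Nutlin-3 replicate 1. TP53INP1, which binds ATG8 proteins, rose 3.35-fold, BBC3 3.82-fold and TIGAR 2.69-fold. BCL2, which holds BECN1 back, averaged 0.0387 ± 0.00235 RPKM in Nutlin-3 and 0.0885 ± 0.00530 RPKM in DMSO libraries (-0.64, limma adjusted p = 0.00972). Its levels lie near the pseudocount, and the log2 fold change was -1.19 by limma voom on the recovered reads. BCL2L1, in the same list, rose 1.94-fold (0.94, limma adjusted p = 0.000194). On the exon scale BCL2L1 averaged 57.1 ± 2.25 in Nutlin-3 and 29.4 ± 1.16 in DMSO libraries, and BCL2 0.647 ± 0.0393 and 1.48 ± 0.0886. BCL2L1 shares 42.97% of its exon length with ABALON on the opposite strand. The part of either gene in the control of BECN1 was not tested. AC008012.1 covers 42.6% of the TIGAR exon length in the same orientation.

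**Figure D4:**
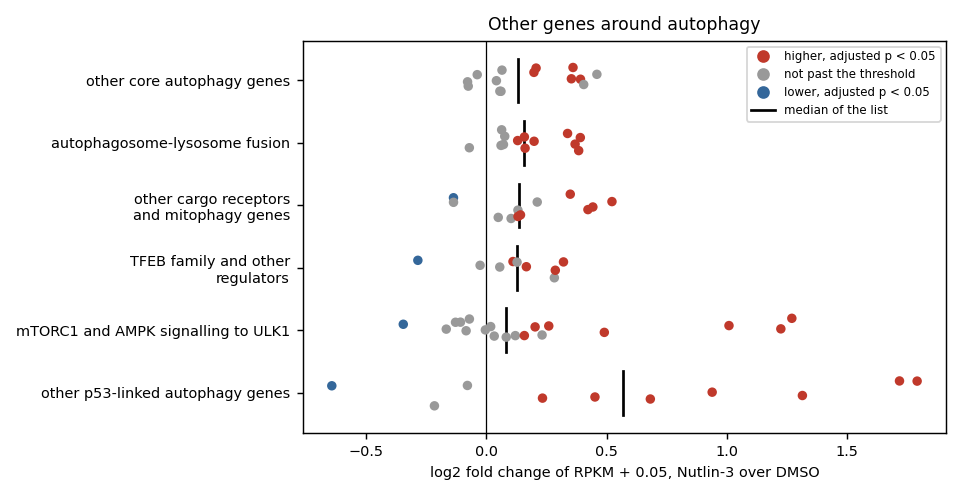
Log2 fold change of RPKM + 0.05 (x axis, Nutlin-3 over DMSO) of the tested genes of 6 lists around autophagy (rows, points spread vertically for visibility, red higher and blue lower past an adjusted p of 0.05, grey not past it), with the median of each list as a black line. The medians lie between 0.08 for mTORC1 and AMPK signalling and 0.57 for the p53-linked genes, and 1 gene fell in each of 4 lists.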

How the data were processed

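Poly(A) RNA of RPE1 cells was sequenced as 6 TruSeq Stranded mRNA libraries, per the labels' protocols. The authors deposited RPKM in 1 column per library, and 0 columns stayed unmapped. CASAVA 1.8.2, TopHat2, edgeR and hg19 are named, with no role, per the submitters' processing notes. Counter and annotation: not given in the sources used here. Low RPKM values came out as whole reads (tolerance 0.01 read) in 90.1% of cases with GENCODE 29 gene spans and in 31.9% with exon lengths, so reads were recovered from the spans for 27538 genes. For 8825 more, the ratios between libraries were used, and their totals may be off by a whole factor. Library sizes behind the RPKM were 29.8 to 42.3 M. They were 0.926 to 0.945 times the recovered reads in Nutlin-3 libraries and 0.990 to 1.01 times in DMSO libraries. The RPKM and the limma voom fit both use these sizes. Scaling by recovered read totals, which would lower Nutlin-3 values relative to DMSO values, was not run.

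limma 3.58.1 (R 4.3.3, two-sided, eBayes with trend, no covariate) was run over 22859 genes averaging 0.05 RPKM or more, with Benjamini-Hochberg adjustment. Alternatives were limma voom on reads (mean of at least 10), other filters, pseudocounts (0.5, 0.01) and scalings, a replicate block and each library left out. The members and lists were chosen with earlier results of these data known. Named are all 40 members and, per further list, up to 3 genes in each direction with the largest change past the threshold. Some other genes of the lists are named beside them, chosen after the values were seen. Chi-square per gene was 1.88 to 5.11 within groups, so no library was merged with another. The test was run on simulated data beforehand. It called 2% of 50 genes changed 1.25-fold, 4% at 0.8-fold, 56% at 1.5-fold and 92% at 2-fold. Few genes were changed there, so these shares need not hold for the real data. Symbols (52338 IDs matched) and overlaps are from GENCODE 29 and a gene name table, promoters from RefSeq. NCOA4 and PECAM1 were not analysed here.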

Additional observations from a re-analysis of the deposited data

How the results depend on the processing

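The 19 rises and 4 falls kept their sign under every alternative that tested them, and 15 of the 19 rises passed in every one. Calls of ULK1, PIK3C3, ATG9A and ATG14 were lost with a replicate block (limma adjusted p = 0.0562, 0.0593, 0.0515 and 0.126). The count of rises was 18 to 19 when 1 library was left out and the count of falls 2 to 4. Falls numbered 2 with a minimum of 0.5 RPKM, with or without a pseudocount of 0.5, since fewer genes were tested, and 9 by limma voom on the recovered reads. Of the further pathway genes, 4 fell in the limma fit on RPKM, against 2 with a minimum and pseudocount of 0.5, 8 with a filter of 10 reads (chosen after seeing the data) and 9 by limma voom, while rises numbered 28 to 33 without 1 library. Same-numbered libraries did not deviate together (r = -0.0249, -0.0145 and -0.0133), and no library correlated best with its own number. These values give no sign of pairing by number, but with 3 libraries per group they cannot exclude a small shared effect. With a replicate block, which costs residual degrees of freedom, 5306 genes passed against 7975 (2479 against 3791 downwards), 0 autophagy genes fell, and 24 and 1 of the further pathway genes rose and fell, against 37 and 4. The cause of the other changes was not tested. The median log2 fold change of all genes was 0.00104, and 0.0306 under quantile normalization. Depth limits ATG10, ATG4A, ATG4C, ATG4D and ULK2 most, with at most 719 reads per library.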
